A study of Arabidopsis thaliana with 12 samples.

Results

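XERICO (AT2G04240) encodes a small RING finger protein of Arabidopsis thaliana, and its transcript was measured by 1 probe, 1 of 692 probes naming a single gene among 3439 probes in all. These probes named 691 different genes. The probe was found through the gene identifier of the locus, and it was the only probe whose annotation named the gene. It was chosen because earlier results of these same arrays had shown it higher in wounded plants, so its levels and its difference between the groups are given here as a description, with no test. RNA came from wild-type plants of the Columbia accession (Col-0), the common laboratory strain. In 6 samples, each on its own array, the leaves had been cut (mechanical wounding) 2 days earlier, and 6 further samples came from untreated plants. The labels gave no genotype other than wild type, no plant age, no number of plants per array and no harvest day for the untreated plants, so harvest time and wounding cannot be told apart.

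RING finger proteins of this kind act as E3 ubiquitin ligases, which mark other proteins for breakdown. XERICO is known from Arabidopsis as a gene whose overexpression raises the content of abscisic acid and the tolerance of drought, and as a gene induced by DELLA proteins, the repressors of gibberellin signalling. Abscisic acid closes stomata and switches on drought genes. Its receptors, when bound to the hormone, block a set of protein phosphatases and so free protein kinases that act on transcription factors. Cutting a leaf also opens it to water loss, and jasmonate is the best known hormone of the wound response.

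The table held intensities on a linear scale, with array means of 0.983 to 1.09 and 4.77% to 5.90% of each array listed at 0. Wounded replicate 4 stood apart, with a correlation over probes of 0.43 to 0.50 with the other arrays, while the other 11 correlated with each other at 0.876 to 0.985. Each value below is therefore given with this array (12 arrays) and without it (11 arrays). Some arrays were also nearly alike in pairs, with correlations over probes of 0.985 for untreated 1 and 2, 0.967 for untreated 3 and 4, 0.972 for untreated 5 and 6, 0.953 for wounded 2 and 3, and 0.955 for wounded 5 and 6. Separate plants or extracts behind the arrays are not stated by the labels, so errors and p-values here measure only the spread between arrays, which may be technical. Of 10 mesophyll marker genes, a single-gene probe existed for 6, and none of these was at 0 on any array. PSBW, a photosystem II subunit, lay between the 99.4th and the 99.7th percentile of the values above 0 of each array, and LHB1B2, a chlorophyll-binding protein, had a median percentile of 98.5 and a lowest one of 71.3. The median percentiles of PSAN, PSBY, PRK and SBPASE were 86.7, 82.4, 80.5 and 53.0, with lowest values of 48.9 for PSAN and 41.4 for SBPASE. Of 20 markers of guard cells, epidermis, vasculature, root, flower and seed, 0 had a single-gene probe, so the make-up of the material could not be checked further.

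XERICO was brighter in 5 of the 6 wounded arrays than in any untreated array. Its deposited intensity was 4.75, 4.56, 4.30, 1.80, 4.06 and 4.01 in wounded replicates 1 to 6, against 2.37, 2.62, 2.35, 2.56, 3.13 and 3.23 in untreated replicates 1 to 6. Wounded replicate 4 was the lowest of all 12 arrays, and the other wounded arrays did not overlap with the untreated ones. Over these 11 arrays, 2.65% of 3203 probes had every wounded array above every untreated one, after the quantile normalization described below. XERICO was picked from this contrast, so the gap is a description. In such bulk RNA, a change in the number of cells that express the gene and a change in its RNA per cell cannot be told apart. The mean was 3.91 ± 1.07 over the 6 wounded arrays, 4.34 ± 0.32 over the 5 without replicate 4, and 2.71 ± 0.38 over the 6 untreated arrays (SD). The ratio of the means, wounded over untreated, was 1.44 with replicate 4 and 1.60 without it.

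**Figure D1:**
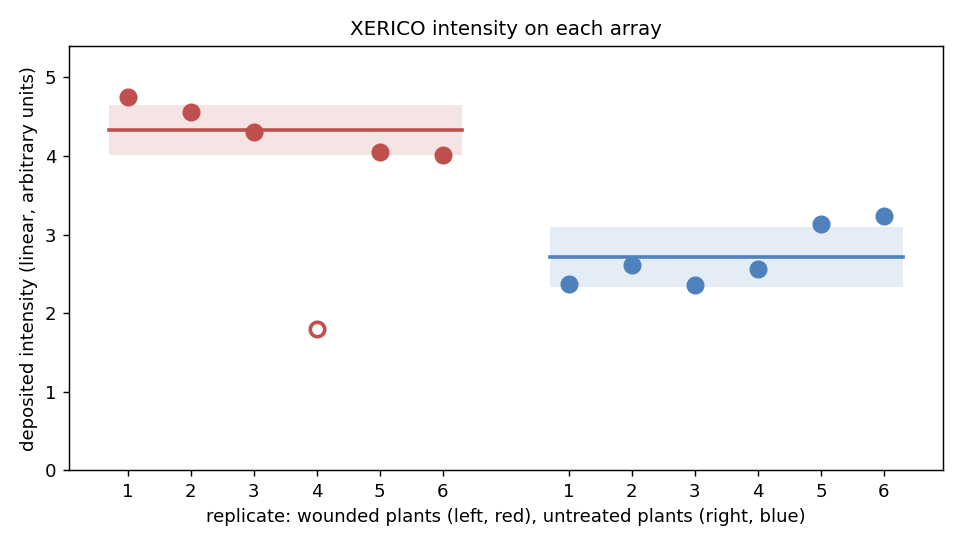
Deposited XERICO intensity (linear, arbitrary units) on each array, with wounded plants on the left in red and untreated plants on the right in blue. Lines are group means and bands 1 SD, for the wounded group without replicate 4 (open circle). Wounded replicate 4, at 1.80, lies below every other array, and the other wounded arrays lie at 4.01 or more, above the highest untreated array at 3.23.

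The alike arrays also had nearly the same XERICO signal. Wounded 5 and 6 differed by 0.0436 intensity units and wounded 2 and 3 by 0.251, while untreated 5 and 6 differed by 0.0981, untreated 3 and 4 by 0.210 and untreated 1 and 2 by 0.246. The means of these pairs were 4.43 for wounded 2 and 3, 4.03 for wounded 5 and 6, 3.18 for untreated 5 and 6, 2.49 for untreated 1 and 2 and 2.46 for untreated 3 and 4. Untreated 5 and 6 were thus the untreated arrays nearest to the wounded group, and the untreated pairs 1 and 2 and 3 and 4 differed by less than the gap within either of them.

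The array medians were lower on average in the wounded arrays, but the groups overlapped. Their mean was 0.375 over the 6 wounded arrays, 0.377 without replicate 4, and 0.474 over the 6 untreated arrays. The array median lay between 0.305 and 0.451 in wounded arrays, against 0.420 to 0.551 in untreated arrays, although the array means were close to 1. The part of this shift in the XERICO values was not tested, but the size of the XERICO difference on other scales is measured here. Divided by the median of its array, XERICO was at 12.6, 14.9, 14.1, 4.93, 9.11 and 8.90 in wounded replicates 1 to 6, against 4.33, 4.75, 5.42, 6.10, 7.10 and 7.11 in untreated replicates 1 to 6. On this scale wounded replicate 4 fell within the untreated range instead of below it. The other wounded arrays lay above all untreated arrays, with a ratio of means of 2.05 without replicate 4 and 1.85 with it.

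A position among the probes of the same array does not depend on scaling. It is a place in the order of brightness, which also depends on each probe, and not an order of transcript abundance. The XERICO probe was among the brighter ones on every array. Of the values above 0 on an array, XERICO reached the 96.8th, 96.8th, 96.3rd, 93.1st, 96.3rd and 96.2nd percentile in wounded replicates 1 to 6, against the 89.6th, 91.3rd, 91.3rd, 92.2nd, 94.5th and 94.7th in untreated replicates 1 to 6. Between 103 and 123 probes were brighter than XERICO on the 5 wounded arrays without replicate 4, 226 on wounded replicate 4, and between 175 and 341 on the untreated arrays. By position wounded replicate 4 lay inside the untreated range and the other wounded arrays above it. The position and the ratio to the array median restate the same XERICO values, so neither is separate support for the difference.

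**Figure D2:**
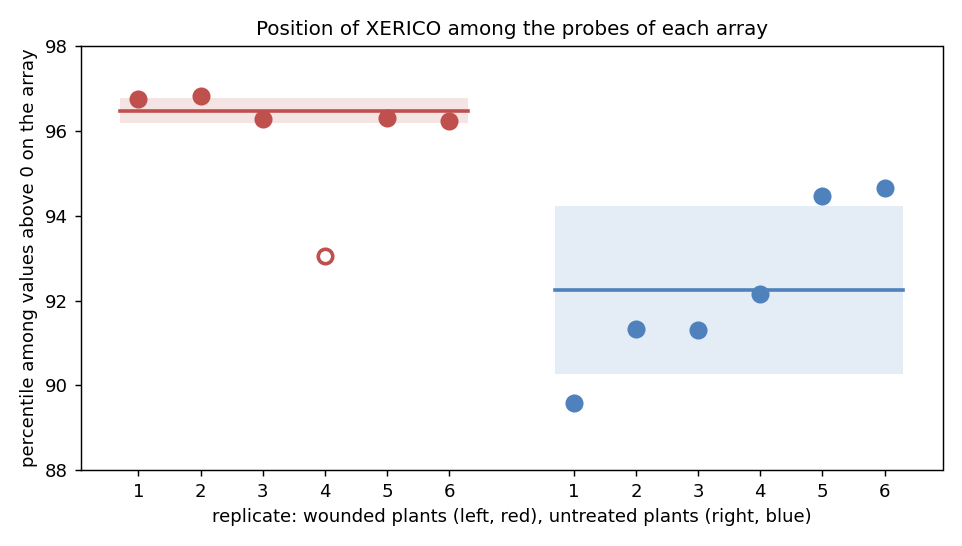
Percentile of XERICO among the values above 0 of each array, with wounded plants on the left in red and untreated plants on the right in blue. Lines are group means and bands 1 SD, for the wounded group without replicate 4 (open circle). The wounded arrays other than replicate 4 lie between 96.2 and 96.8, the untreated arrays between 89.6 and 94.7, and wounded replicate 4 at 93.1 among the untreated ones.

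For the comparison over all probes the log2 values were quantile-normalized, which gives every array the same distribution. XERICO then stood at a mean log2 level of 1.97 ± 0.28 (SD, n = 6) in wounded arrays, 2.08 ± 0.07 (SD, n = 5) without replicate 4, and 1.32 ± 0.29 (SD, n = 6) in untreated arrays. The log2 difference, wounded minus untreated, was 0.65 ± 0.19 (moderated SE) over 12 arrays, which is 1.57-fold, and 0.77 ± 0.14 over 11 arrays, which is 1.70-fold. Wounded replicate 4 alone was 0.09 above the untreated mean on this scale, while all probes had a median of 0.13 and an SD of 1.87 for the same difference. Taken by the replicate number of the titles, the log2 difference was 1.18, 1.0, 0.88, 0.14, 0.39 and 0.34 for numbers 1 to 6, positive for each. The titles do not say whether the numbers pair the arrays. As deposited, the difference was -0.51 for number 4 and between 0.31 and 1.0 for the others.

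Set against the other probes, the XERICO difference was in the upper tail. Over 12 arrays 238 of 3233 probes had a larger log2 difference, and over 11 arrays 83 of 3203. Among single-gene probes, 45 of 644 were larger over 12 arrays and 16 of 637 over 11. Over the 11 arrays the middle of the distribution ran from -0.45 at the 10th percentile to 0.42 at the 90th, around a median of -0.02. Among the 200 probes closest to XERICO in mean level, 2 had a larger difference over 11 arrays and 3 over 12. As background, limma with Benjamini-Hochberg adjustment called 0 of 3233 probes (0%) over 12 arrays, where 376 had an unadjusted p under 0.05, and 71 of 3203 (2.22%) over 11, of which 31 (0.968%) were higher and 40 (1.25%) lower in wounded plants. This fit took the alike arrays as separate samples, and over 11 arrays 0 probes were called with them averaged or fitted as a random block, whose correlation was 0.801. Every wounded array lay above every untreated one for 1.33% of 3233 probes over 12 arrays, XERICO not among them, and for 2.65% of 3203 probes over 11, XERICO among them. As XERICO was picked from this very contrast, nothing is read from these shares.

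**Figure D3:**
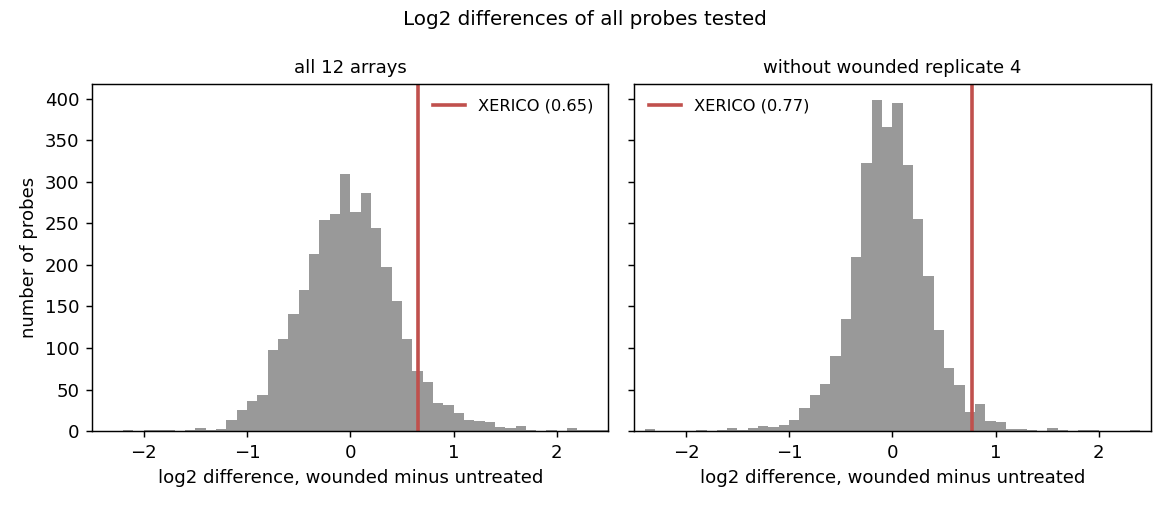
Number of probes by log2 difference, wounded minus untreated, in bins of 0.1 after quantile normalization, over 12 arrays (left) and 11 arrays (right), with axes cut at 2.5 on each side. The red line marks XERICO, at 0.65 over 12 arrays and 0.77 over 11, in the upper tail of both distributions.

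The spread of XERICO within the groups depended on wounded replicate 4 and on the scaling. After quantile normalization the SD of log2 values was 0.28 over the 6 wounded arrays, 0.07 over 5 and 0.29 over the 6 untreated arrays. The median SD of all probes was 0.63 over the 6 wounded arrays, 0.31 over 5 and 0.26 over the untreated ones. The SD over 5 wounded arrays was thus small, at the 1.28th percentile of the probes, while the untreated SD was at the 59.3rd. Over the 6 wounded arrays the SD was at the 11.4th percentile. The 5 wounded arrays include the alike pairs 2 and 3 and 5 and 6, and all untreated arrays are in such pairs. Each SD therefore rests on fewer distinct levels than arrays. A gene called over these 11 arrays tends to have a small spread, so the small wounded SD is a description too. The wounded SD over 5 arrays was also small with the values as deposited, at 0.11, but it was 0.34 after median centring and 0.30 after scaling to the 75th percentile, while the untreated SD stayed between 0.20 and 0.30 under these scalings. After median centring wounded 1 to 3, at 3.52, 3.77 and 3.70 on the log2 scale, lay above wounded 5 and 6, at 3.07 and 3.07.

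The sign of the XERICO difference was positive under every setting tried, and the size moved with the scaling. XERICO was picked for being higher in this contrast, and the choice of probes kept does not alter its estimate. The constant sign is thus a description. Over 11 arrays it was 0.69 as deposited, where the median of all probes was -0.31, and 1.02 after median centring, where that median was 0.02. Relative to the median of all probes XERICO was 1.0 higher as deposited and after median centring, and 0.79 higher after quantile normalization. Median centring takes a constant off each array, so the first 2 figures had to be nearly equal. Over 12 arrays the same values were 0.48, 0.82 and 0.65, or 0.79, 0.79 and 0.68 above the median of all probes. A random block for each alike pair gave a difference of 0.61 over 12 arrays and 0.78 over 11, with SEs of 0.29 and 0.18.

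**Figure D4:**
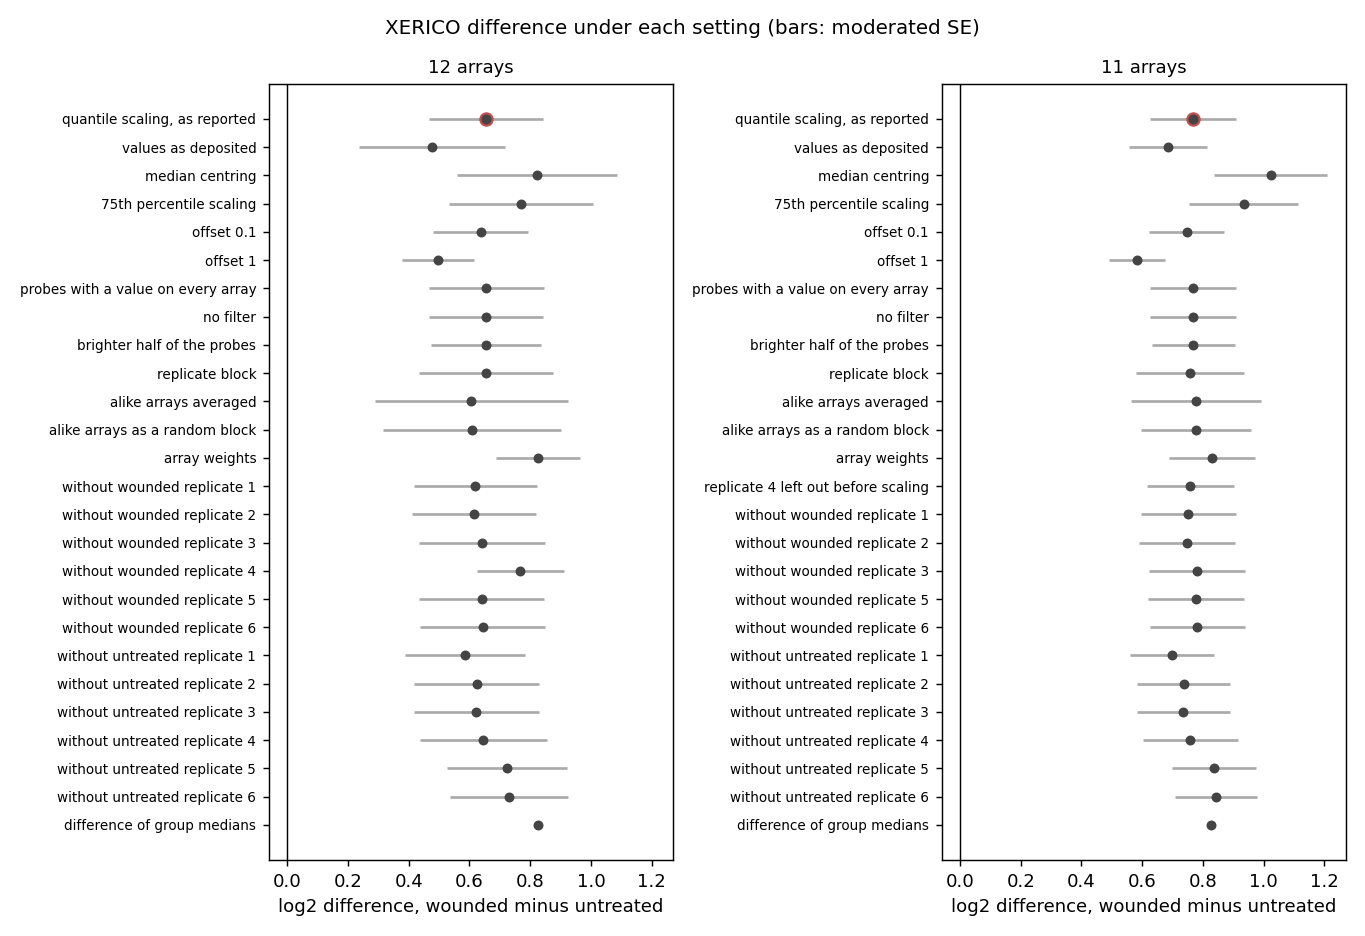
XERICO log2 difference, wounded minus untreated, under each setting, over 12 arrays (left) and 11 arrays (right), with horizontal bars for the moderated SE (none for the difference of medians). The values lie between 0.48 and 0.83 over 12 arrays and between 0.58 and 1.02 over 11, all above 0.

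The genes around XERICO in its hormone pathways were not covered by single-gene probes. Lists of genes for the synthesis and breakdown of abscisic acid, its receptors, its phosphatases and kinases, its transcription factors, its drought targets, the gibberellin and DELLA genes, RING ligases of hormone and stress signalling, and reported partners of XERICO held 106 genes in 9 lists. Of these, 0 had a single-gene probe, and 1 was named on a probe with several genes, which gives no value for a single gene. Whether these genes changed beside XERICO was therefore not measured here.

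Genes named for induction by drought, salt, mannitol or aluminium were the nearest in theme with probes of their own, a list assembled from the probe names. Of 4 such genes, 0 passed in limma over 12 arrays and 0 over 11, beside 0% and 2.22% of all probes. An unadjusted p under 0.05 was found for 0 of them over 12 arrays and for 1, SIS, over 11, beside 11.6% and 20.8% of all probes. DI21, a drought-induced gene, had deposited intensities of 1.15, 1.76, 1.73, 0.255, 1.01 and 0.913 in wounded replicates 1 to 6, against 1.46, 1.42, 1.13, 0.991, 1.21 and 1.21 in untreated replicates 1 to 6. Its groups overlapped, with wounded replicates 2 and 3 highest and replicate 4 lowest, and its log2 difference was -0.19 ± 0.40 over 12 arrays and 0.19 ± 0.23 over 11 (SE, limma adjusted p = 0.842 and 0.659). SIS, a serine-rich gene induced by salt, had intensities of 0.512, 0.343, 0.367, 0.128, 0.604 and 0.672 in wounded replicates 1 to 6, against 0.917, 0.876, 0.763, 0.717, 0.760 and 0.665 in untreated replicates 1 to 6. Wounded 6 lay just above untreated 6 and all other wounded arrays below every untreated one. The log2 difference of SIS was -0.75 ± 0.35 over 12 arrays and -0.38 ± 0.10 over 11 (limma adjusted p = 0.433 and 0.0701).

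MAMI, a membrane protein gene induced by mannitol, had a log2 difference of 0.25 ± 0.18 over 12 arrays and 0.21 ± 0.17 over 11 (SE, limma adjusted p = 0.559 and 0.507), with a sign that turned with the values as deposited. Its intensity ran from 0.760 to 0.954 in wounded arrays, against 0.719 to 0.960 in untreated arrays, so that the groups overlapped throughout. AILP1, named for likeness to an aluminium-induced protein, was near the bottom of the range, at or under the 8.42nd percentile on every array and listed at 0 on wounded replicate 2. It had a log2 difference of -1.49 ± 0.70 over 12 arrays and -1.27 ± 0.75 over 11 (limma adjusted p = 0.436 and 0.365). For a gene this dim the size rests on the handling of low values: with offsets of 0.1 and 1 the difference was -0.26 and -0.034 over 12 arrays, and -0.24 and -0.030 over 11. Both SIS and AILP1 thus had negative values where XERICO was positive, but neither passed the threshold.

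The genes whose profile was most like that of XERICO were found by Pearson's r of the quantile-normalized log2 levels, among 599 single-gene probes measured on all 12 arrays and 612 measured on all 11. These values are descriptions: the points share the alike arrays and the difference between the groups, and wounded replicate 4 weighs on those over 12 arrays. Over 11 arrays the median r with XERICO was -0.09, and 2 genes had r over 0.9. AT2G30100 was the most alike, with r = 0.95 over 11 arrays (Spearman's rho 0.85) and 0.94 over 12 arrays (rho 0.85). AT1G74070 came next in both, with r = 0.91 over 11 arrays and 0.87 over 12. Among the 6 untreated arrays alone these genes had r = 0.97 and 0.96 with XERICO, as all 3 were higher in untreated 5 and 6 than in untreated 1 and 2. Within the 5 wounded arrays without replicate 4, where XERICO had an SD of only 0.07, r had the opposite sign, at -0.83 for AT2G30100 and -0.68 for AT1G74070, so the likeness did not hold within both groups. With the values as deposited, r over 11 arrays was 0.66 for AT2G30100 and 0.74 for AT1G74070.

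Only 3 genes were among the 8 most alike both over 12 and over 11 arrays, namely AT2G30100, AT1G74070 and AT4G29890 (r = 0.79 over 12 arrays and 0.85 over 11). Over 11 arrays the others were AT2G17670 (0.88), AT3G57440 (0.87), AT3G12000 (0.86), AT5G11650 (0.86) and AT3G26580 (0.86). With the values as deposited, r of these genes over 11 arrays was 0.73, 0.60, 0.70, 0.87 and 0.36, in the same order. Wounded replicate 4 parted these from XERICO: it lay 2.97 above the untreated mean for AT2G17670, 2.02 above for AT3G12000 and 1.99 above for AT5G11650, while for AT3G57440 it lay at -1.96 relative to that mean. Over 12 arrays the others were AT2G23160 (r = 0.82), AT3G57630 (0.80), AT2G20920 (0.71), AT2G13690 (0.70) and AT2G35390 (0.69).

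The profiles most opposed to XERICO over 11 arrays were those of AT2G23890 (r = -0.94), AT1G54500 (-0.94), the MADS-box gene AGL54 (-0.93) and AT4G31060 (-0.93). In each of these all 6 wounded arrays were lower than the untreated mean, wounded replicate 4 the lowest, and 11 genes in all had r under -0.9. Over 12 arrays the lowest were AT3G50180 (r = -0.91), UBA1A, which encodes an RNA-binding protein (-0.91), AT1G31220 (-0.91) and AT4G33500 (-0.90). Their r over 11 arrays was -0.91, -0.90, -0.91 and -0.89, close to the values over 12 arrays by which they were picked. AT2G23890, picked over 11 arrays, had r = -0.45 over 12 arrays. Within the 5 wounded arrays without replicate 4, r was -0.04 for AT3G50180, 0.12 for UBA1A, 0.57 for AT1G31220 and -0.25 for AT4G33500. With the values as deposited, r of these genes lay between -0.69 and -0.56 over 12 arrays and between -0.90 and -0.83 over 11. For AT2G23890, AT1G54500, AGL54 and AT4G31060, r within the 5 wounded arrays was -0.82, -0.54, -0.44 and 0.64. As deposited it was -0.93, -0.96, -0.87 and -0.89 over 11 arrays, and -0.22, 0.085, -0.25 and -0.21 over 12. After median centring it was -0.88, -0.60, -0.97 and -0.91 over 11 arrays.

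**Figure D5:**
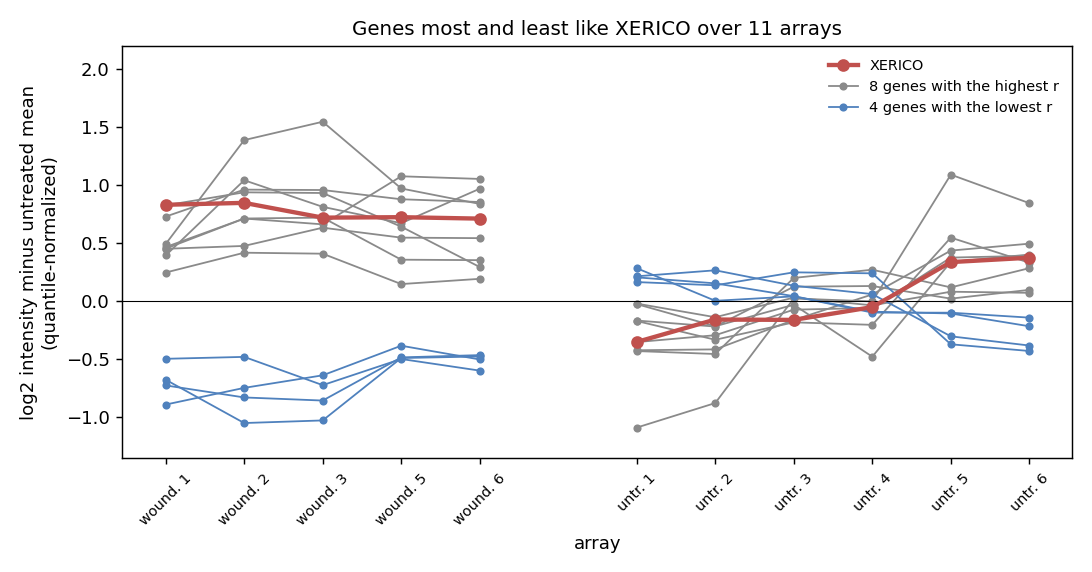
Quantile-normalized log2 intensity minus the untreated mean on each of 11 arrays, wounded at the left and untreated at the right, for XERICO (red), the 8 genes with the highest r (grey) and the 4 with the lowest r (blue). Lines only join the points of a gene. XERICO lies between 0.71 and 0.85 on the wounded arrays and between -0.35 and 0.38 on the untreated ones, where untreated 5 and 6 are highest.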

How the data were processed

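The authors deposited linear intensity values, none negative, of 3439 probes on 12 arrays, 1 for each sample. Which array was used, and how background and scale were handled, is not given in the sources used. Groups and replicate numbers came from the titles. XERICO, the gene lists and the tests were chosen with earlier results of these data known. The platform annotation, which can be old, was brought up to date by gene identifier with the RefSeq table of TAIR10.1, which held 690 of the 692 single-gene probes. Coordinates are left out, as the files name no build.

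Values of 0 were treated as missing, the others put on the log2 scale and quantile-normalized with limma 3.58.1 in R 4.3.3, since the array medians differed by over 0.1. Probes with at least 4 values per group were fitted with lmFit and eBayes, two-sided, and called at a Benjamini-Hochberg adjusted p under 0.05. For the values over 11 arrays, wounded replicate 4 was removed once the arrays had been scaled. Precision is limited by the number of arrays. The fit was tested on data simulated for 11 independent arrays. Those held no alike pairs and no wounded replicate 4, so the error rates in the real arrays were not tested. Named genes were XERICO, the 8 most and 4 least correlated single-gene probes over 12 and over 11 arrays, list members, stress-named genes and the nearest single-gene locus on each side. A planned search for RING patterns in proteins was not run. Figures used matplotlib 3.10.9.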

Additional observations from a re-analysis of the deposited data

Results flagged for a closer look

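Wounded replicate 4 was set apart from the other wounded arrays for XERICO on 3 scales. Its log2 quantile-normalized level was 1.41, and the next wounded array was at 2.03, so that 0.821 of the range of the 6 arrays lay between them. By percentile within the array it was at 93.1, against 96.2, a share of 0.842, and by deposited intensity at 1.80, against 4.01, a share of 0.75. For SIS the same array was lowest in the wounded group, at -3.13 against -1.12 on the log2 scale, a share of 0.831. For 6 independent values, chance sets an array apart in this way in about 1 of 20 groups. Some arrays were alike, several genes and scales were looked at, and this array was already known to stand apart. The rate here is therefore not known, and the share is a description. Relative to the array median, as a log2 difference or a ratio, XERICO on this array was again the lowest of the wounded group but was not set apart by this measure. The array was apart over all probes as well, as given above, and the cause was not tested. No array of the untreated group was so placed for XERICO, DI21, SIS, MAMI, AILP1, AT2G03390 or AT2G04360.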

How the results depend on the processing

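The XERICO difference stayed positive under all settings; leaving out 1 array gave 0.59 to 0.77 over 12 arrays, the highest without wounded replicate 4, and 0.70 to 0.84 over 11. After median centring it was 1.02 over 11 arrays, and the wounded SD was 0.58 over 6 arrays and 0.34 over 5 (0.30 with 75th percentile scaling). The count of probes called over 12 arrays, 0, became 7 as deposited, 1 and 13 with offsets of 0.1 and 1, and 179 with array weights; leaving out 1 array gave 0 to 71, with 71 found without wounded replicate 4. Over 11 arrays the 71 became 137 and 136 with these offsets, 119 with array weights, and 0 with the alike arrays averaged or as a random block; leaving out 1 further array gave 2 to 125. The split of 31 higher and 40 lower was 48 and 24 after median centring and 6 and 81 as deposited. The deviations of same-numbered arrays from their group means had correlations of -0.34 to 0.09. The wounded mean included the odd wounded replicate 4, so these correlations cannot settle whether the numbers pair the arrays. With the replicate block the XERICO difference was 0.65 over 12 and 0.76 over 11 arrays, and 0 probes were called over either. Signs that turned, none of them called: over 12 arrays DI21 (0.0079 with median centring, 0.37 with array weights, -0.38 to 0.19 without 1 array, positive only without wounded replicate 4), MAMI (-0.047) and AT2G03390 (-0.051) as deposited; over 11 arrays MAMI (-0.033) and AT2G03390 (-0.27) as deposited, and AT2G03390 also with 75th percentile scaling (-0.025), alike arrays averaged (-0.042) or as a random block (-0.022), and from -0.14 to 0.26 without 1 array. SIS passed over 11 arrays with offsets of 0.1 and 1, in the brighter probes and with array weights, and over 12 with array weights. These settings took the alike arrays as separate samples. Over 11 arrays its limma adjusted p was 0.742 with the alike arrays averaged, 0.619 with them as a random block and 0.306 with the replicate block. The causes were not tested.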

Other observations

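The nearest loci of chromosome 2 with a single-gene probe were AT2G04360, with 14 annotated genes between it and XERICO, and AT2G03390 on the other side, with 150 between. AT2G04360 had intensities of 0.826, 0.645, 0.632, 0.480, 0.873 and 0.823 in wounded replicates 1 to 6, against 1.18, 1.09, 0.993, 0.851, 1.04 and 0.998 in untreated replicates 1 to 6. Its groups overlapped at wounded 5 and untreated 4, and its log2 difference was -0.24 ± 0.14 over 12 arrays and -0.17 ± 0.10 over 11 (SE, limma adjusted p = 0.506 and 0.341). AT2G03390 was dimmer, with a log2 difference of 0.31 ± 0.39 over 12 arrays and 0.08 ± 0.34 over 11 (limma adjusted p = 0.719 and 0.929). Neither passed the threshold.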
